A study of Sus scrofa with 4 samples.

Results

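The genes described here make, break down and move prostaglandins in the pig ovary. They were the rows of the deposited expression table whose symbol was PTGS1, PTGS2, PTGES, PTGES2, PTGES3, PTGIS, AKR1B1, HPGD, SLCO2A1 or PLA2G4A. Each of the 10 symbols matched 1 row, so the group held 10 of the 22309 genes in the table. All 10 passed the filter on low counts, together with 13927 other genes. Ovaries of sows (Sus scrofa) were collected in diestrus, the luteal phase of the cycle, and poly(A) RNA was sequenced from 2 wild type (WT) samples and 2 samples labelled leptin overexpression. Per the series design, the transgenic line began with 1 leptin-overexpressing animal (C013) that was cloned again; its cloned male offspring were mated with Duroc/Landrace/Yorkshire sows, and carriers were selected in the F2 generation. The promoter that drives the transgene, the ages of the sows and the relation of the WT animals to the line were not given in the sources used here. Nothing in the labels ties each sample to its own animal; the p-values therefore cover the spread among these 4 samples, which may be technical.

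Prostaglandins are local lipid signals made from arachidonic acid. PLA2G4A, the cytosolic phospholipase, frees the acid from membranes; the cyclooxygenases PTGS1 and PTGS2 turn it into prostaglandin H2, and terminal synthases turn that into prostaglandin E2 (PTGES, PTGES2, PTGES3), prostaglandin F2α (AKR1B1 among others) or prostacyclin (PTGIS). SLCO2A1 carries prostaglandins across the cell membrane and HPGD inactivates them inside the cell. In the ovary PTGS2 is known for its induction by the preovulatory gonadotropin surge; prostaglandin F2α triggers regression of the corpus luteum and prostaglandin E2 is known to support it.

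The 4 libraries held 16493113 to 16797511 counts. LEP, the overexpressed gene, went in the direction of the labels: WT replicates 1 and 2 held 0 and 3 counts, leptin overexpression replicates 1 and 2 held 55 and 124. Values below are given in that order, and the leptin overexpression libraries are also called transgenic. The libraries did not separate cleanly by genotype: across genes, the Pearson correlation of WT replicate 2 was higher with transgenic replicate 1 (r = 0.941, over genes, which are not independent) than with its fellow WT library (0.917). Defining transcripts of steroid-producing cells were abundant in every library, STAR (cholesterol import into mitochondria) at 7022 to 23771 CPM and CYP11A1 (side-chain cleavage) at 3822 to 12182. CPM is a gene's count scaled by the product of its library's total and a TMM factor, so CPM sums can differ between libraries. The factors were 1.34 and 0.998 in WT, compared with 0.925 and 0.809 in the transgenic libraries. They raise transgenic values relative to WT values. Over all genes, the median log2 fold change, leptin overexpression over WT, was -0.43 with library totals alone and -0.01 with TMM factors. In whole ovary, fewer cells of a type and less RNA per cell cannot be told apart. The expected counts of the group's genes, deposited with 2 decimals, were exactly whole in 40 of 40 values, against 84.5% to 87.3% of all values per library.

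PTGES was the most abundant and the most divergent gene of the group. In CPM with TMM factors it stood about 5 times higher in both leptin overexpression libraries than in either WT library. With library totals alone its log2 fold change was 2.00, compared with 2.44 with TMM factors. PTGIS was the most divergent in the other direction, and the remaining 8 genes differed between genotypes by less than, or little more than, the spread between libraries. By edgeR's quasi-likelihood test with Benjamini-Hochberg adjustment over all genes, 0 of the 10 passed the threshold of 0.05, while 4 of 13937 genes (0.0287% of those tested) passed as higher and 0 (0%) as lower. At an unadjusted p under 0.05, 1 of the 10 (PTGES) was higher and 1 (PTGIS) lower; of all genes tested, 4.04% and 5.32% were. In CPM, the genotype groups did not overlap for 4 genes with higher values and 2 with lower values, against 22.2% and 22.9% of all genes tested. Log2 fold changes, leptin overexpression over WT, were above 0 for 7 of the 10 genes with a median of 0.55, beside 49.3% and a median of -0.01 over all genes. That median depends on the scaling: with library totals alone it was 0.08 for the group and -0.43 for all genes. It also depends on single libraries: for the group it was 0.15 without leptin overexpression replicate 2 and 0.87 without leptin overexpression replicate 1.

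**Figure D1:**
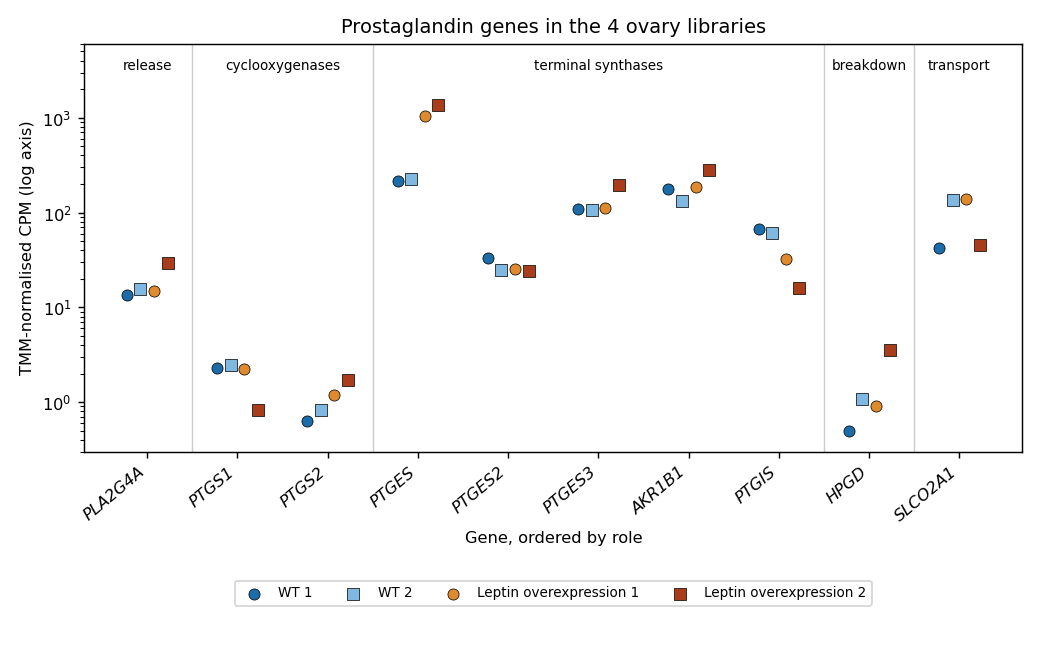
TMM-normalised CPM (log axis) of the 10 prostaglandin genes in each of the 4 libraries, ordered by role from arachidonate release to transport; circles are replicate 1, squares replicate 2, blue WT and orange or red leptin overexpression. PTGES shows a gap between the genotypes, from 227 to 1046 CPM, whereas the SLCO2A1 points fall into 2 pairs that each hold 1 library of either genotype.

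Per transcript length, the group spanned a wide range. Levels compared between genes are deposited FPKM values (fragments per length and library size). The means over the 4 libraries were 568 for PTGES, 115 for AKR1B1, 74.6 for PTGES3, 21.5 for SLCO2A1, 9.36 for PTGIS, 7.01 for PTGES2, 6.27 for PLA2G4A, 0.592 for PTGS1, 0.428 for HPGD and 0.285 for PTGS2. The mean FPKM of PTGES was above that of 99.5% of the genes in the table, and that of PTGS2 above 36.5%. PTGES was clear of AKR1B1 in every library. AKR1B1 and PTGES3 overlapped when all libraries were pooled (78.6 to 143 and 59.9 to 91.6 FPKM), although AKR1B1 was the higher of them in each. PTGIS, PTGES2 and PLA2G4A overlapped one another, as did PTGS1, HPGD and PTGS2.

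PTGES encodes the microsomal, glutathione-dependent prostaglandin E synthase, an inducible enzyme that works with PTGS2. WT libraries held 4748 and 3805 of its counts and transgenic libraries 16015 and 18119, which came to 215 and 227 CPM against 1046 and 1353. Both leptin overexpression libraries were high, both WT libraries were low, and the groups did not overlap. The WT mean was 221 ± 8.24 CPM (SD, n = 2) and the leptin overexpression mean 1199.5 ± 218. The 4 ratios between a leptin overexpression and a WT library ran from 4.60 to 6.28. In CPM, 54 of 13937 genes tested (0.387%) had a lowest leptin overexpression library at least 4 times their highest WT library. This count was added after the values of PTGES had been seen. In FPKM, PTGES was at 254 and 200 in WT, compared with 853 and 964 in the transgenic libraries. By FPKM it ranked 242nd and 302nd of all genes in WT and 77th and 82nd in leptin overexpression.

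The log2 fold change of PTGES was 2.44 (SE 0.48, edgeR adjusted p = 0.209), and 45 of the 13937 genes had a smaller unadjusted p. Whether it passed depended on the tool and filter. It passed with DESeq2 (adjusted p = 4.4e-07), which called 0.718% of genes higher, and without the filter on low counts (edgeR adjusted p = 0.00719), where 0.47% were called higher. It passed with library totals alone (edgeR adjusted p = 0.00886, 0.524% called higher), and with limma on log2(FPKM + 1) and log2(FPKM + 0.1) (limma adjusted p = 0.00114 and 7.1e-04), which called 0.646% and 0.639% higher. It did not pass with limma-voom (0.259) or upper-quartile factors (0.109). Leaving out a library gave log2 fold changes of 2.26 to 2.63, with edgeR adjusted p of 0.0118 without WT replicate 2, where 1.75% of genes were called higher, 0.0523 without WT replicate 1, and 0.204 and 1.0 without leptin overexpression replicates 1 and 2; in each such fit the lone sample of a group is assumed to vary like the other group. Among the 181 tested genes with a mean CPM at least that of PTGES, 3 including PTGES had a log2 fold change as high.

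Markers of cumulus and ovulatory cells also had higher summed levels in the transgenic libraries. Of the 8 tested genes of that list, 6 had higher values in leptin overexpression, with a median log2 fold change of 0.45, and their summed level was 239 and 997 CPM in WT, compared with 1186 and 1885 in the transgenic libraries. The most abundant members were AREG and PTX3. AREG, an EGF-like ligand of ovulation, was at 9.3 and 508 against 193 and 459 CPM. PTX3, a matrix protein of the cumulus, was at 28 and 134 against 639 and 1031. On the sum, WT replicate 2 lay much nearer to the leptin overexpression libraries than it did for PTGES, but AREG made up 508 of its 997 CPM. For PTX3, both WT libraries lay well below both leptin overexpression libraries. The steroidogenic list had 7 of 10 higher, at summed levels of 22100 and 46004 against 44556 and 47762 CPM. The granulosa list had 5 of 8 higher, at 1112 and 1436 against 1709 and 1509 CPM, with SERPINE2 and NR5A2 the most abundant. No marker of these 3 lists was at 0 in any library. The part of these cells in the level of PTGES was not tested.

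The other prostaglandin E synthases did not follow PTGES. PTGES3, the cytosolic enzyme that is also the HSP90 co-chaperone p23, was at 108 and 107 CPM in WT, compared with 111 and 194 in the transgenic libraries. In CPM, leptin overexpression replicate 2 alone was high, and replicate 1 was within 5 CPM of the WT libraries (log2 fold change 0.50, SE 0.41, edgeR adjusted p = 0.678). On the FPKM scale PTGES3 overlapped, at 84.5 and 62.4 in WT against 59.9 and 91.6. PTGES2, a membrane-associated enzyme, was at 32.8 and 24.5 CPM in WT, compared with 25.7 and 24.1 in the transgenic libraries, with overlapping groups (log2 fold change -0.20, SE 0.37, edgeR adjusted p = 0.863).

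A share taken within a library does not depend on how libraries are scaled. Of the summed FPKM of the 3 prostaglandin E synthases, PTGES took 72.7% and 74.5% in WT, compared with 92.8% and 90.9% in the transgenic libraries. The mean share was 73.6% ± 1.28 (SD, n = 2) for WT, compared with 91.9% ± 1.36 for the transgenic libraries, a difference of 18.3 percentage points that was larger than the spread within either group. PTGES3 took 24.2% and 23.2% against 6.52% and 8.63%, and PTGES2 took 3.16% and 2.29% against 0.650% and 0.462%. The summed level went with PTGES, at 350 and 268 FPKM in WT and 918 and 1061 in leptin overexpression. With 2 samples against 2, an exact permutation test cannot give a two-sided p below 0.333, so none was run on these shares.

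**Figure D2:**
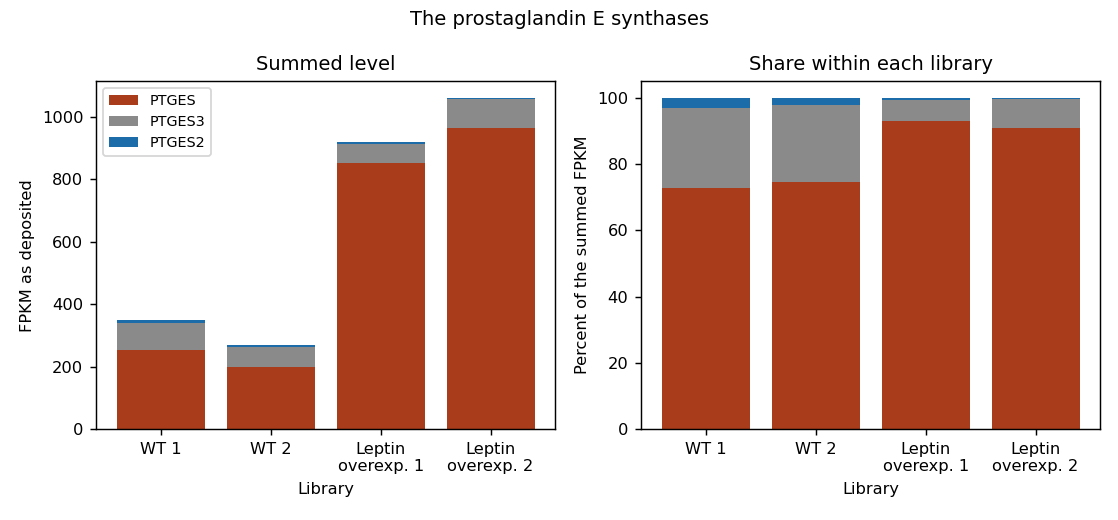
Left, deposited FPKM of PTGES, PTGES3 and PTGES2 stacked for each library; right, the share of each in that sum, in percent. The bars of PTGES fill 72.7% and 74.5% of the sum in the WT libraries, compared with 92.8% and 90.9% in the transgenic ones. PTGES3 overlaps between the genotypes, at 84.5 and 62.4 FPKM in WT against 59.9 and 91.6.

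The cyclooxygenases upstream of PTGES had low counts. PTGS2, the inducible enzyme, had 14 and 14 counts in WT, compared with 18 and 23 in the transgenic libraries; in CPM it was at 0.635 and 0.835 against 1.18 and 1.72, and the groups did not overlap (log2 fold change 0.97, SE 0.87, edgeR adjusted p = 0.705). The exact Poisson 95% intervals, which cover counting error only, ran on the CPM scale from 0.347 to 1.07 and from 0.457 to 1.40 for the WT libraries, and from 0.696 to 1.86 and from 1.09 to 2.58 for the transgenic ones. Those of WT replicate 1 and leptin overexpression replicate 2 missed each other narrowly, and every other pair across the genotypes overlapped. PTGS1, the constitutive enzyme, had 51 and 41 counts in WT, compared with 34 and 11 in the transgenic libraries, or 2.31 and 2.45 against 2.22 and 0.822 CPM. Leptin overexpression replicate 2 was low and replicate 1 was next to the WT libraries (log2 fold change -0.64, SE 0.81, edgeR adjusted p = 0.795). Neither gene passed the threshold, and the low counts limit what could be detected.

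Read within libraries, the PTGS2 to PTGS1 ratio of FPKM was 0.258 and 0.329 in WT, compared with 0.508 and 2.00 in the transgenic libraries. The last value rests on 23 and 11 counts. PTGES exceeded PTGS2 by ratios of 1105 and 869 in WT, compared with 2842 and 2538 in the transgenic libraries. The groups did not overlap in either ratio.

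PLA2G4A, which releases arachidonic acid, was at 13.4 and 15.6 CPM in WT, compared with 15 and 29.6 in the transgenic libraries. Leptin overexpression replicate 2 stood apart from the other 3 libraries, and the groups overlapped (log2 fold change 0.62, SE 0.45, edgeR adjusted p = 0.648). AKR1B1, an aldo-keto reductase with prostaglandin F synthase activity, was at 177 and 133 CPM in WT, compared with 187 and 282 in the transgenic libraries. The groups were separated by 10 CPM, which is less than the spread within either (log2 fold change 0.60, SE 0.42, edgeR adjusted p = 0.642). On the FPKM scale AKR1B1 overlapped, at 143 and 78.6 against 103 and 135. The ratio of PTGES to AKR1B1 in FPKM was 1.78 and 2.54 in WT, compared with 8.31 and 7.17 in the transgenic libraries; the mean log2 ratio differed by 1.86 between the genotypes, and the larger SD within a genotype was 0.37.

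PTGIS, the cytochrome P450 that makes prostacyclin, had lower values in leptin overexpression. Its counts were 1481 and 1018 in WT, compared with 501 and 212 in the transgenic libraries, or 67.2 and 60.7 against 32.7 and 15.8 CPM. Both leptin overexpression libraries were below both WT libraries, and they differed from each other by a factor of 2.07. The log2 fold change was -1.40 (SE 0.43, edgeR adjusted p = 0.358), and 2.88% of the genes tested had an unadjusted p at or below that of PTGIS. It passed with library totals alone (edgeR adjusted p = 0.0105), where 3.43% of genes were called lower. It also passed with limma on log2(FPKM + 1) and log2(FPKM + 0.1) (limma adjusted p = 0.0218 and 0.0177), which called 2.68% and 2.86% lower, and did not with DESeq2 (adjusted p = 0.125). Each setting in which PTGIS passed scales by library totals without TMM factors. The median log2 fold change over all genes was -0.43, -0.30 and -0.40 in them. Without leptin overexpression replicate 2 the log2 fold change of PTGIS was -0.95, and without replicate 1 it was -1.997. The FPKM ratio of PTGES to PTGIS was 14.5 and 17.1 in WT, compared with 147 and 390 in the transgenic libraries.

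Markers of the vessel wall, whose endothelium and smooth muscle are known sources of prostacyclin, mostly had lower values, as PTGIS did. The smooth muscle and pericyte list had lower values for 6 of 7 genes (median log2 fold change -0.87), at a summed 1464 and 1616 CPM in WT, compared with 998.5 and 1026 in the transgenic libraries; its most abundant members were ACTA2, at 385 and 418 against 232 and 367 CPM, and RGS5, at 212 and 325 against 368 and 276. The endothelial list had lower values for 10 of 11 genes (median -0.47), at a summed 858 and 1581 against 1107 and 516 CPM. PECAM1, an adhesion molecule, led it at 232 and 290 CPM against 196 and 138. KDR, a VEGF receptor, followed at 128 and 315 CPM against 242 and 85.8. On the smooth muscle and pericyte sum, both leptin overexpression libraries lay below both WT libraries, as for PTGIS. On the endothelial sum, leptin overexpression replicate 1 lay between the WT libraries. It lay below both for PECAM1 and between them for KDR. No marker of these lists was at 0.

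Other lists also differed between the libraries. The surface and oviduct epithelium list had lower values for 7 of 8 genes, at a summed 553 and 305 CPM in WT, compared with 24.3 and 87.8 in the transgenic libraries, with KRT18 and FOXJ1 at 0 counts in leptin overexpression replicate 1. Its most abundant genes were OVGP1, at 316 and 183 against 0.0653 and 1.20 CPM, and EPCAM, at 33.8 and 7.76 against 2.55 and 57.1. Macrophage and neutrophil markers were lower for 9 of 11 genes, at a summed 479 and 651 against 461 and 378 CPM, with C1QB and C1QC the most abundant and S100A8 at 0 counts in WT replicate 1. Theca and stroma, led by COL1A1 and COL1A2, had 3 of 7 lower, at 3496 and 3660 against 4029 and 2907 CPM. The part of these cells in the level of PTGIS was not tested. Of the genes on the 8 marker lists, 0 passed the edgeR threshold.

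**Figure D3:**
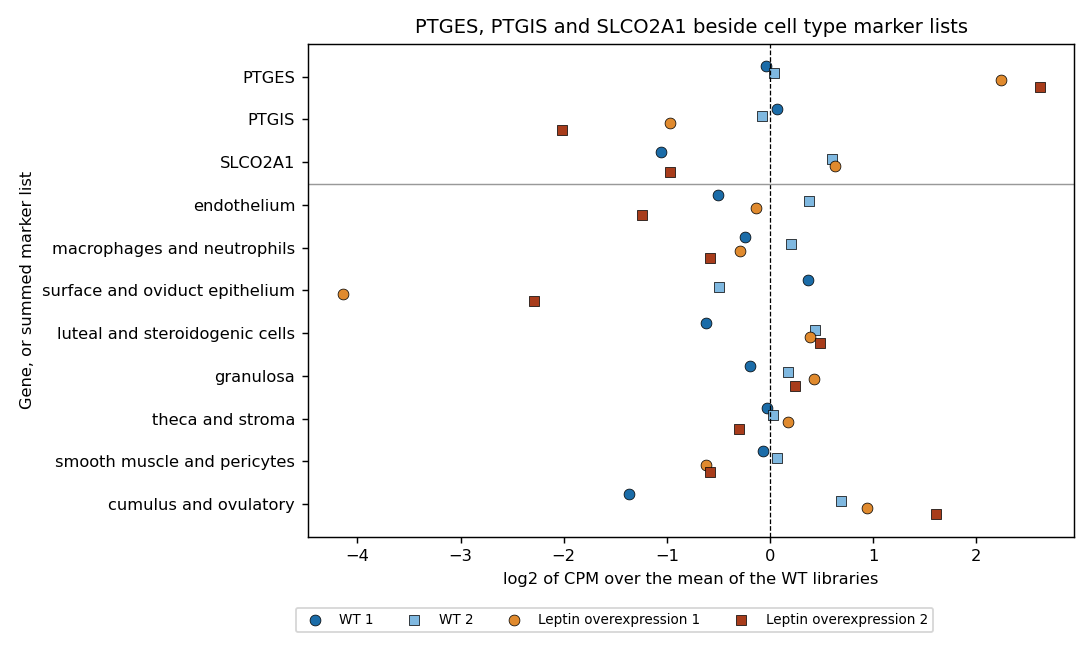
Log2 of the CPM in each library over the mean of the WT libraries, for PTGES, PTGIS and SLCO2A1 (above the line) and for the summed CPM of 8 cell type marker lists (below it). PTGES sits at 2.24 and 2.61 in leptin overexpression with both WT libraries within 0.04 of 0. The cumulus, steroidogenic, endothelial and epithelial lists spread widely between the WT libraries.

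HPGD, the dehydrogenase that starts prostaglandin inactivation, was barely expressed. It had 11 and 18 counts in WT, compared with 14 and 47 in the transgenic libraries, or 0.499 and 1.07 against 0.914 and 3.51 CPM. Leptin overexpression replicate 2 was high and the other 3 libraries were low, so the groups overlapped (log2 fold change 1.49, SE 0.97, edgeR adjusted p = 0.615). Leaving that library out, the log2 fold change was 0.23. The FPKM ratio of PTGES to HPGD overlapped between the genotypes, at 1270 and 625 against 2508 and 1135. In leptin overexpression replicate 1 the length implied by the deposited count and FPKM of HPGD was 2486 bases, against 3335 to 3349 in the other libraries, so its FPKM there is not on quite the same scale.

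SLCO2A1, the prostaglandin transporter, split the libraries in another way than the genotype did. It was at 42.7 and 135 CPM in WT, compared with 137 and 45.5 in the transgenic libraries. WT replicate 2 and leptin overexpression replicate 1 were high and nearly equal, and the remaining libraries were low and nearly equal. The log2 fold change was 0.04 (SE 0.67, edgeR adjusted p = 0.987), and it was below 0 in 6 of 14 alternatives. This pattern, with those libraries at least 2.5 times the others, was found in 81 of 13937 genes (0.581%), a count added after the values had been seen. Of the 11 endothelial markers 9 had the same libraries above the other pair, as did 16.7% of all genes tested, but 0 of the 11 by 2.5 times; PECAM1, the most abundant, and CDH5, a junction cadherin at 134 and 194 against 122 and 50.1 CPM, had WT replicate 1 above leptin overexpression replicate 1. CDH5 and these counts were chosen after the values had been seen. The part of endothelial cells in the level of SLCO2A1 was not tested.

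**Figure D4:**
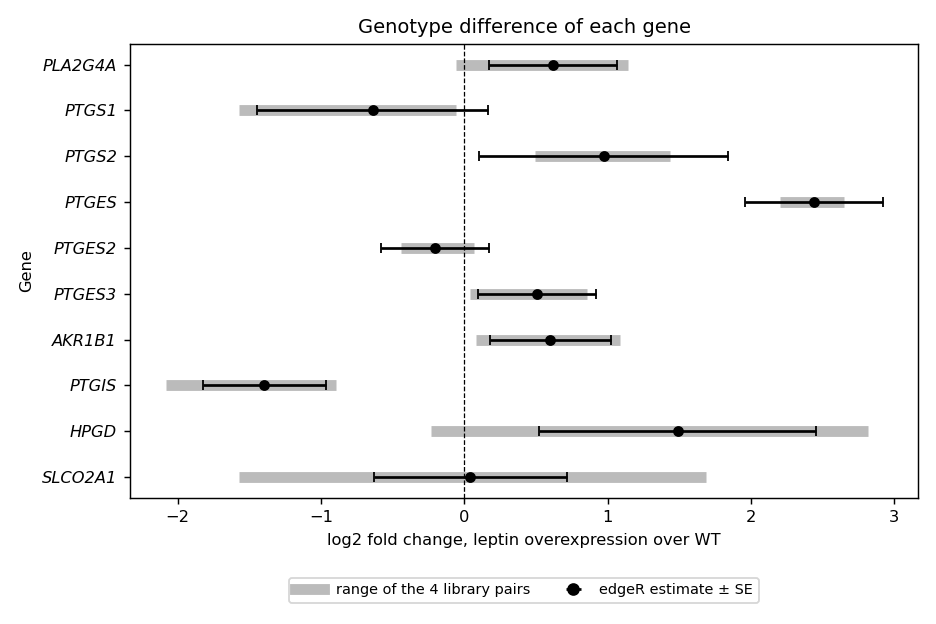
Log2 fold change of each of the 10 genes, leptin overexpression over WT; points and bars are the edgeR estimate ± SE, and grey bands run from the lowest to the highest of the 4 ratios between single libraries of the genotypes. The band of PTGES runs from 2.203 to 2.65 and that of PTGIS from -2.08 to -0.89, whereas that of SLCO2A1 runs from -1.57 to 1.69.

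The direction of most of these differences held under the other settings, although their size did not. Over 14 alternatives (other scalings, filters, tools and a replicate block, and each library left out), PTGES, PTGS2, PTGES3, AKR1B1, HPGD and PLA2G4A had log2 fold changes above 0 in all 14, and PTGIS and PTGS1 below 0 in all 14. PTGES passed in 6 of them and PTGIS in 3; the other 8 genes passed in 0. For PTGES3, AKR1B1 and PLA2G4A the log2 fold changes shrank to 0.05, 0.12 and 0.17 with library totals in place of TMM factors, and the lowest values over the settings with all libraries were 0.03, 0.12 and 0.11. Without leptin overexpression replicate 2 they were 0.07, 0.29 and 0.06.

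**Figure D5:**
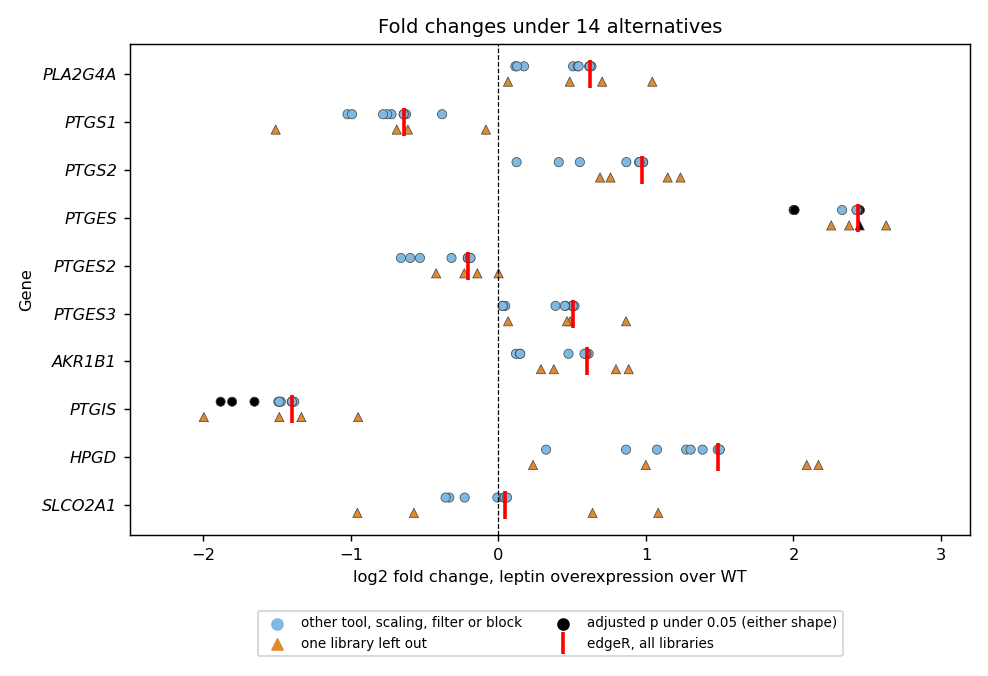
Log2 fold change of each gene with all libraries by edgeR (red bar), under 10 other settings with all libraries (circles) and with 1 library left out (triangles); black marks an adjusted p under 0.05. All marks of PTGES lie between 2.00 and 2.63, and those of SLCO2A1 lie on both sides of 0.

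Other prostanoid genes were read from 5 lists, with leukotriene and lipoxygenase enzymes and related lipid genes counted among them. Of 52 entries, 45 matched a row and 34 genes were tested; 0 passed the edgeR threshold in either direction, and 18 of the 34 had higher values (median log2 fold change 0.04). At an unadjusted p under 0.05, 2 of the 34 were higher and 2 lower, where 4.04% and 5.32% of all genes tested were. The list of other phospholipases and arachidonate release also holds genes that work against release. Of its 11 tested genes, 8 had higher values, where 49.3% of all genes tested did. ACSL4, which activates arachidonic acid for esterification and so competes for it, was at 372 and 805 CPM in WT, compared with 1400 and 3307 in the transgenic libraries (log2 fold change 2.00, SE 0.64, edgeR adjusted p = 0.368). ANXA1, an inhibitor of phospholipase activity, was at 130 and 294 against 312 and 916 CPM (1.53, SE 0.64, 0.522). For ANXA1 WT replicate 2 lay next to leptin overexpression replicate 1, and for ACSL4 it lay about midway between WT replicate 1 and leptin overexpression replicate 1, whereas for PTGES the WT libraries were nearly equal.

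Among the other synthases, 3 of 4 tested genes had higher values and PTGDS, the lipocalin-type prostaglandin D synthase, had lower ones, at 31.7 and 17.3 CPM in WT, compared with 10.1 and 5.23 in the transgenic libraries (log2 fold change -1.68, SE 0.50, edgeR adjusted p = 0.34). PRXL2B, which has prostaglandin F synthase activity, was at 5.53 and 6.44 against 6.66 and 7.54 CPM. Of 7 genes of breakdown and transport 5 had higher values, with HSD17B10 at 51.7 and 54.4 against 70.3 and 71.9 CPM, PTGR2, a prostaglandin reductase, at 28.1 and 30.7 against 26.9 and 54.2, and SLCO3A1, a transporter of the same family as SLCO2A1, at 38.02 and 52.4 against 38.2 and 23.4. All 7 tested genes of the receptor list had lower values (median log2 fold change -0.87), where 50.7% of all genes tested did. The prostaglandin E2 receptor PTGER4 was at 6.08 and 5.61 against 2.81 and 2.39 CPM (edgeR adjusted p = 0.564). PTGFR, the prostaglandin F receptor, and PTGFRN, its negative regulator, spread more within WT (152 and 1316 CPM, and 104 and 411) than between genotype means. On the list of leukotriene and lipoxygenase enzymes 2 of 5 tested genes had higher values, ALOX15 and EPHX2. ALOX5, which starts leukotriene synthesis, was at 2.31 and 1.43 against 0.261 and 0.149 CPM (log2 fold change -3.14, SE 1.00, edgeR adjusted p = 0.367), the last 2 values being near the limit that 3 counts allow (0.196 and 0.224 CPM). LTA4H and EPHX2, the most abundant of that list, had log2 fold changes of -0.02 and 0.27.

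The genes whose profile over the 4 libraries was most like that of PTGES were UCP2, UGT1A6, LOC100510917, PERP and HUNK. Likeness was the Euclidean distance between log2 CPM values centred on each gene's mean, among tested genes with a symbol and a mean of at least 5 CPM; the distances were 0.48, 0.50, 0.51, 0.60 and 0.61. UCP2, a mitochondrial carrier, was at 18.6 and 19.9 CPM in WT, compared with 63.3 and 124 in the transgenic libraries. PERP, a desmosomal membrane protein, was at 42.9 and 52.5 against 140 and 289 CPM. UGT1A6, a glucuronosyltransferase, was at 29 and 43.1 against 220 and 266 CPM; it belongs to a family with shared exons, so its counts are uncertain. With 4 libraries many genes can share a profile, and these distances are a description of the samples at hand.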

How the data were processed

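Poly(A) RNA of 4 pig ovary samples was made into NEBNext Ultra libraries and sequenced on an Illumina NovaSeq, per the labels' protocols. The authors deposited expected counts, estimates of reads per gene with no scaling to depth, and FPKM values, which the authors scaled to transcript length and library size (both per the file headers). Tools named in the submitters' processing notes, without roles, are edgeR 3.32.0, DESeq2, RSEM, StringTie 1.3.1, HISAT2, Bowtie2 2.2.8 and fastp 0.18.0. No genome build or strand setting was given in the sources used here; no coordinates are printed, and antisense or overlapping genes cannot be told apart. Columns headed as controls were read as the like-numbered WT samples.

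Expected counts were rounded to whole numbers. The filterByExpr function kept 13937 genes and removed 8372, TMM factors scaled the libraries, and edgeR's quasi-likelihood test compared the genotypes (versions: edgeR 4.0.16, limma 3.58.1, R 4.3.3). The model was robust and held genotype alone, which left 2 residual degrees of freedom; Benjamini-Hochberg adjustment ran over all tested genes. Each SE was taken as the size of the log2 fold change over the root of its F statistic. The script was tested on simulated data. A count of 0 allows up to 3 counts, or 0.136 to 0.224 CPM; intervals and limits cover counting error only. Symbols were in the table for 15153 genes, in a gene name table for 664 and in a RefSeq table (Sscrofa11.1) for 2222, and 4270 genes had none. Of 74 marker entries 70 matched.

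The genes and lists were chosen with earlier results of these data known. Named were all 10 genes and LEP, the 2 genes of highest mean FPKM and the 1 of smallest p in each prostanoid list, and the 2 of highest mean CPM in each marker list. KRT18, FOXJ1 and S100A8 were named for their 0 counts. The alternatives were RLE factors, upper-quartile factors, library totals, no filter, a minimum of 1 CPM in 2 samples, limma-voom, DESeq2 1.42.0, limma-trend on log2(FPKM + 1) or log2(FPKM + 0.1), a replicate block, and omission of each library in turn.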

Additional observations from a re-analysis of the deposited data

How the results depend on the processing

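With all libraries, 4 genes were higher and 0 lower by edgeR; the counts were 7 and 4 with upper-quartile factors, 73 and 478 with library totals, 84 and 168 without a filter, 100 and 205 with DESeq2, 1 and 0 with limma-voom, 90 and 374 with limma-trend on log2(FPKM + 1), 89 and 398 on log2(FPKM + 0.1), and 11 and 12 with the replicate number as a block. Leaving out 1 library gave 0 to 258 higher and 0 to 423 lower. Of the prostaglandin genes, 1 was higher with library totals, no filter, DESeq2 and both limma-trend fits, and 1 was lower with library totals and both limma-trend fits; leaving out 1 library gave 0 to 1 higher and 0 lower. Of the other prostanoid genes, 1 was higher with DESeq2 and both limma-trend fits and 1 lower with library totals and both limma-trend fits, and 0 to 2 were higher and 0 to 1 lower with 1 library left out. The cause of these differences was not tested.

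The log2 fold change of PTGES2 was 0.0012 without WT replicate 1, and ran from -0.42 to that value over the omitted libraries. That of SLCO2A1 was -0.0070 with upper-quartile factors, -0.23 with library totals, -0.33 and -0.36 with limma-trend on log2(FPKM + 1) and log2(FPKM + 0.1), -0.57 without WT replicate 1 and -0.96 without leptin overexpression replicate 1; its highest value with a library left out was 1.08. The share of PTGES among the prostaglandin E synthases differed by 25.4 percentage points in counts, which weight long transcripts more, and by 17.3 to 19.3 in FPKM with 1 library left out. The log2 ratios between genes kept their sign with 1 library left out, from 0.80 to 2.78 for PTGS2 to PTGS1, 0.35 to 1.49 for PTGES to HPGD, 1.60 to 2.12 for PTGES to AKR1B1 and 1.28 to 1.63 for PTGES to PTGS2. Replicate numbers gave no pairing of the samples: deviations of same-numbered libraries from their group means correlated at -0.0995 over genes, and the replicate block changed no call of the 10 genes (PTGES adjusted p = 0.197 by edgeR). Depth limits PTGS1, PTGS2 and HPGD, which had 11 to 51 counts per library.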

Other observations

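The most abundant row with an aldo-keto reductase name was an assembled gene that the table calls Akr1c15 and describes as member C-like 1 of family 1; enzymes of this subfamily reduce steroids, and some make prostaglandin F. WT libraries held 41114 and 38810 of its counts and transgenic (leptin overexpression) libraries 38989 and 41515, or 1865 and 2316 against 2545 and 3101 CPM, which is far above AKR1B1. In FPKM the libraries were at 2097 and 1943 against 1980 and 2108, so the groups overlapped on that scale and not on the CPM scale (log2 fold change 0.43, SE 0.51, edgeR adjusted p = 0.778). The row was picked after its values were seen, and reads may be divided between it and similar genes of the subfamily, so its level is uncertain.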
